A study of Mus musculus with 2 samples.

Results

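Mmp13-positive dental mesenchymal cells were picked from 2 single-cell RNA libraries of mouse molars on measured transcripts. A cell was counted when it held 200 or more genes and no more than 20% mitochondrial UMIs (unique molecular identifiers, 1 for each captured transcript), at least 3 UMIs of Mmp13, Col1a1 at 1% or more of its UMIs, fewer than 10 UMIs of osteocalcin (Bglap plus Bglap2) and fewer than 10 of Dspp. The rule found 975 cells among the 19015 deposited, 353 in Lipo-Clo and 622 in Lipo-PBS. The limits on osteocalcin and Dspp were meant to set aside mature bone-forming cells and odontoblasts, which leaves collagen-rich cells that carried the transcript of a collagenase.

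Both libraries came from the first mandibular molars of C57BL/6J mice with the tissue around them, taken at PN15.5 and digested to loose cells. Lipo-Clo mice received 40 μg/g clodronate liposomes, which deplete phagocytic cells, into the peritoneum at PN3.5, 6.5 and 9.5 and again 3 days before collection, and Lipo-PBS mice the same volume of vehicle liposomes. The comparison asks what the dental mesenchyme does when macrophages are removed while the root forms. The sources do not give the number of mice in a library, both sexes were used in the study, and the liposomes were given to the whole animal. With 1 library for each condition no difference between them has a replicate check, and every interval below is a 95% interval for counting error alone.

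MMP13 is a secreted collagenase that cuts fibrillar collagen, and it is made as an inactive precursor. In the skeleton it is known from hypertrophic cartilage, from osteoblast-lineage cells and from tissue that is being remodelled, where it works beside the membrane-bound MMP14 and the gelatinases MMP2 and MMP9. Its gene is a textbook target of RUNX2 and of AP-1, the dimer of FOS and JUN proteins. At the stage sampled here the root elongates, the ligament is laid down and the tooth moves towards the mouth through bone that must be resorbed.

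The RefSeq sequence of the 250 bases before the start of Mmp13 (GRCm38.p6, chr9:7272264-7272513, + strand) is shown because it holds the letters of both factors named above.

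Mmp13 upstream: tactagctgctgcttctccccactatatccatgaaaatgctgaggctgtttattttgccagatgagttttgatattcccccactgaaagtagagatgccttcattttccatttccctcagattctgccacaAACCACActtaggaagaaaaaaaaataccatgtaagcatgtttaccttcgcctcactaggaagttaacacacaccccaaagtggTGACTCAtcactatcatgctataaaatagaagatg

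Capitals mark a RUNX motif (AACCACA, 119 to 113 bases before the start) and an AP-1 motif (TGACTCA, 35 to 29 bases before it), searched on both strands and not overlapping each other. Of 32851 RefSeq promoter entries, 4.40% held the RUNX letters and 4.46% the AP-1 letters in the same window. Among the 15 genes with the largest ratio in Mmp13-positive cells, given further on, 10 had an entry, 2 of which held the RUNX letters (Pdzrn4 and Spp1) and 1 the AP-1 letters (Entpd3). These are matches of letters and do not show that a factor bound.

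Mmp13 UMIs per positive cell ran from 3 to 53 in Lipo-Clo, with a median of 5, and from 3 to 74 in Lipo-PBS, with a median of 6. Cells with 10 or more numbered 70 (19.8%) and 159 (25.6%). Most collagen-rich cells had none, as 2839 of 3525 Lipo-Clo and 3016 of 4183 Lipo-PBS cells that met the limits on Col1a1, osteocalcin and Dspp held 0 Mmp13 UMIs, and these serve below as the Mmp13-zero cells. Positive cells were deeper than Mmp13-zero cells, with a median of 4970 against 3070 UMIs in Lipo-Clo and 4619 against 2878 in Lipo-PBS.

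**Figure D1:**
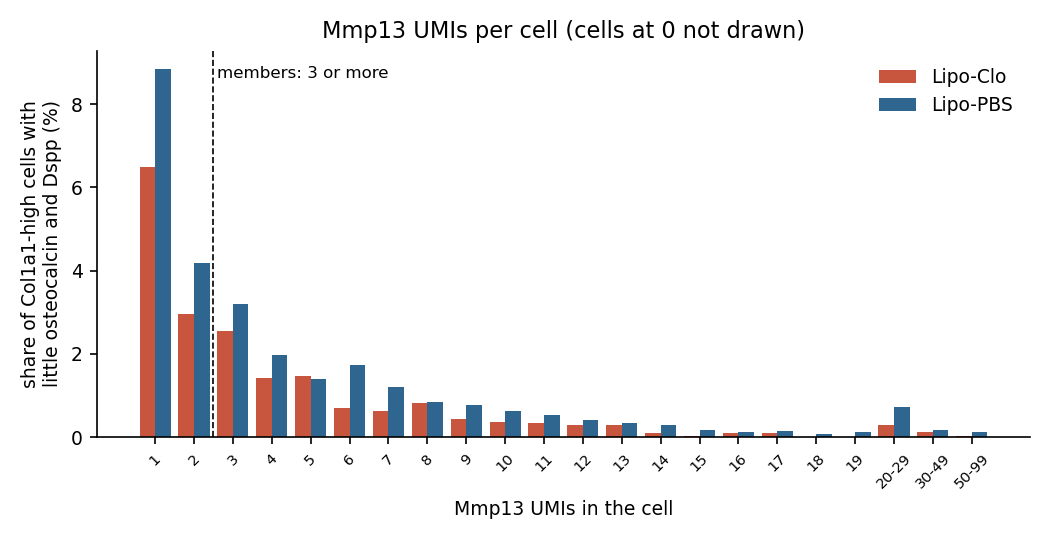
Share of Col1a1-high cells with little osteocalcin and Dspp (y axis, percent) at each number of Mmp13 UMIs (x axis), with 1 bar for each library and cells at 0 left out. There is no gap at the limit of 3, and Lipo-PBS has the longer tail, up to 74 UMIs against 53 in Lipo-Clo.

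The limit of 3 UMIs cut through a continuous range. Cells with exactly 3 UMIs (90 in Lipo-Clo, 134 in Lipo-PBS) carried Sfrp2 at 939 and 971 counts scaled to 1000000 UMIs (CPM), and cells with 2 UMIs (104 and 175) at 492 and 703 CPM. Gpx3 stood at 971 and 1329 CPM just inside and at 877 and 920.3 CPM just outside. At the Col1a1 limit, 16 Lipo-Clo and 20 Lipo-PBS cells lay just inside (1 to 1.2% of UMIs), and 10 and 17 cells just outside (0.8 to 1%).

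Free transcripts in the suspension can give Mmp13 UMIs to cells that do not make them. Erythroid cells held 3 or more Mmp13 UMIs in 1.46% of cells in Lipo-Clo (median 3671 UMIs) and 1.73% in Lipo-PBS (median 3389). Neutrophils did so in 1.18% (median 2865) and 0.524% (median 1950), and in both cell types the intervals of the libraries overlapped. The Mmp13 level of erythroid cells was 33.6 CPM with clodronate and 75.9 CPM with vehicle, lower in Lipo-Clo as in collagen-rich cells. That of neutrophils went the other way, at 19.3 CPM with clodronate and 16.6 CPM with vehicle. The part of free transcripts in these differences was not tested. The shares in erythroid cells and neutrophils lay well below the 10.01% and 14.9% of collagen-rich cells with little osteocalcin and Dspp that were Mmp13-positive. B cells were few and shallow, with 0 of 58 in Lipo-Clo (median 760 UMIs). This allows a share of up to 6.16% by the exact interval, or 5.17% by a limit of 3 counts. In Lipo-PBS the count was 1 of 28 (3.57%, 0.0904 to 18.3, median 948 UMIs), an interval that covers the share in collagen-rich cells.

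Several features of the libraries stand beside the results. The libraries shared 30 cell barcodes, carried by 3 of the 975 cells, and no barcode was Mmp13-positive in both. Mitochondrial transcripts made up 0.252% of UMIs in Mmp13-positive cells of Lipo-Clo and 1.65% in Lipo-PBS, and about the same gap was seen in all cells kept (0.368% and 1.74%). Doublet scoring marked 42 (11.9%) of the Lipo-Clo and 63 (10.1%) of the Lipo-PBS cells, above the 7.11% and 7.12% of all cells kept. Without the marked cells, Mmp13-positive cells were 3.77% and 6.77% of the cells kept.

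Mmp13-positive cells were a smaller share of the Lipo-Clo library. They were 353 of 8886 cells kept, or 3.97% (3.58 to 4.40), in Lipo-Clo and 622 of 8894, or 6.99% (6.47 to 7.54), in Lipo-PBS. The share in Lipo-PBS was 1.76 times that in Lipo-Clo, which is a log2 ratio of Lipo-Clo over Lipo-PBS of −0.82 (−1.01 to −0.63). Counted among collagen-rich cells with little osteocalcin and Dspp, where the number of such cells no longer enters, the shares were 10.01% (9.04 to 11.1) and 14.9% (13.8 to 16.0), a log2 ratio of −0.57 (−0.76 to −0.38). With every cell thinned to 1000 UMIs, which left out 202 and 212 shallower cells, 10.6% and 16.6% still held at least 1 Mmp13 UMI, and before thinning 19.5% and 27.9% did. Left outside the rule were other carriers of 3 or more Mmp13 UMIs, namely 22 and 49 osteocalcin-high cells, 2 and 0 Dspp-high cells, and 67 and 82 cells low in Col1a1.

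The Mmp13-positive cells were not a cell type of their own. When the collagen-rich cells of both libraries were clustered with Mmp13 left out, the 975 cells spread over all 22 clusters, and the fullest cluster held 220 of them (22.6%, 19.98 to 25.3). A further 71 (20.1%) of the Lipo-Clo and 161 (25.9%) of the Lipo-PBS cells sat in 9 clusters led by markers of other cell types, such as endothelial, macrophage, enamel or neutrophil genes. These may be doublets or cells with free collagen transcripts, which was not tested, and 18.4% and 34.0% of all eligible cells sat there too. The name dental mesenchyme therefore holds for the collagen rule and for most, not all, of the cells.

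Cluster 4, led by genes that include Pcp4, Sfrp2, Igfbp3, H19 and Ogn, had the highest share. In Lipo-Clo 101 of its 282 eligible cells were positive (35.8%, 30.2 to 41.7), whereas in Lipo-PBS 119 of 242 were (49.2%, 42.7 to 55.7). Cluster 0, led by Pappa2, Entpd3, Crispld2 and the growth factor receptor gene Fgfr3, had the next highest share in Lipo-PBS, with 85 of 570 (14.9%, 12.1 to 18.1) and 128 of 352 (36.4%, 31.3 to 41.6). Both clusters thus held a lower share in Lipo-Clo, and in cluster 0 the intervals lay far apart.

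In 4 smaller clusters the shares differed in the same direction, although not all beyond counting error. In cluster 6, led by Edil3 and Lrrc15, the shares were 17.6% and 26.0%, with a log2 ratio of −0.57 (−1.26 to 0.08). In cluster 9, led by Il1rl1, Dio2, Stc1 and Grem1, 6 of 98 (6.12%) and 43 of 225 (19.1%) cells were positive, a log2 ratio of −1.64 (−3.17 to −0.40). Dividing cells (cluster 11) stood at 12.4% and 22.1%, and cluster 15, led by Lrrc4c and Kcnip4, at 10.5% and 24.0%.

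Positive cells were rarer in several other clusters. In cluster 1, fibroblasts led by Clec3b, Cd34 and Col14a1, 8 of 339 (2.36%) and 26 of 566 (4.59%) cells were positive. In cluster 3, led by Moxd1, 5 of 477 and 2 of 145 cells were positive, and in cluster 8, led by Ibsp and the Wnt inhibitor gene Notum, 8 of 209 and 11 of 163. Summed over all cells of cluster 8, Mmp13 nevertheless stood at 403 CPM in Lipo-PBS (152 CPM in Lipo-Clo), near the 393 CPM of all eligible cells. When the clusters were given the same weights in both libraries, the shares were 9.95% and 15.9%, a log2 ratio of −0.68. In the 2 largest clusters led by other cell types the shares lay within each other's intervals, at 9.76% and 9.95% in the endothelial and 12.4% and 12.2% in the macrophage cluster.

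**Figure D2:**
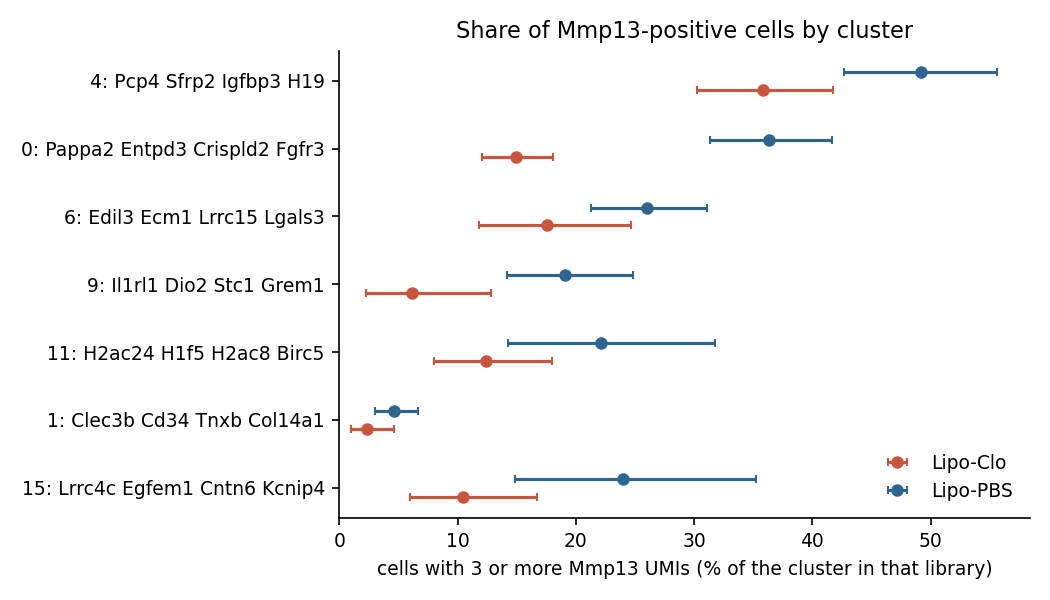
Share of Mmp13-positive cells (x axis, percent of the eligible cells of the cluster in that library) in the 7 clusters with at least 30 such cells that were not led by other cell types, with exact 95% intervals. In each of the 7 the Lipo-Clo point lies to the left of the Lipo-PBS point, and the intervals are apart in clusters 0, 4 and 9.

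What else the cells expressed was described against the Mmp13-zero cells of the same library, gene by gene. Counting genes by size alone, 73 of 11141 (0.655%) were at least 2-fold higher in Mmp13-positive cells of both libraries and 263 (2.36%) at least 2-fold lower. The rule chose cells on measured transcripts, so these ratios describe the cells and none was tested. The median gene had a log2 ratio of −0.05 in Lipo-Clo and −0.03 in Lipo-PBS.

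Sfrp2, a secreted Wnt-binding protein, was higher in the positive cells as a whole but unevenly spread among them. Its summed level was 1076 CPM in Mmp13-positive and 156 CPM in Mmp13-zero cells of Lipo-Clo, and 1060.2 and 318 CPM in Lipo-PBS. The log2 ratios were 2.79 (2.69 to 2.89) and 1.74 (1.66 to 1.81), and 52.1% and 61.6% of the positive cells held at least 1 UMI. Cluster 4 supplied 73.1% and 53.7% of the Sfrp2 UMIs of positive cells. In cluster 0, with 85 and 128 of the positive cells, Sfrp2 was at only 139 and 173 CPM. Against Mmp13-zero cells weighted to the same clusters the log2 ratios were 2.22 and 1.48.

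Gpx3, a secreted glutathione peroxidase, had a UMI in 92.9% and 91.6% of the cells. It stood at 1421 against 306 CPM in Lipo-Clo and 1616 against 384 CPM in Lipo-PBS. Ogn, the small leucine-rich proteoglycan osteoglycin, was at 971 against 264 CPM and 1007 against 247 CPM, with a UMI in 79.6% and 73.5% of cells. Both genes were thus raised to about the same extent in both libraries, with log2 ratios of 2.22 and 2.07 for Gpx3 and 1.88 and 2.03 for Ogn. With the same clusters these were smaller, at 1.69 and 1.31 for Gpx3 and 1.16 and 1.34 for Ogn.

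Surface molecules followed. Ncam1, the neural cell adhesion molecule, was at 441 against 135 CPM in Lipo-Clo and 484 against 126 CPM in Lipo-PBS. Vcam1, an adhesion molecule for leukocytes, was at 50.6 against 15.7 CPM and 82.3 against 27.5 CPM. Entpd3, an enzyme that degrades extracellular nucleotides, had log2 ratios of 2.27 (2.01 to 2.53) and 2.79 (2.50 to 3.09), and of 1.59 and 1.57 with the same clusters.

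Pdzrn4, which encodes a PDZ and RING domain protein, had the largest ratio among the genes ranked by the library closer to 1. It was at 172 against 15.3 CPM in Lipo-Clo and 283 against 20.3 CPM in Lipo-PBS, log2 ratios of 3.49 and 3.80, in 30.6% and 34.7% of cells. Within the same clusters the ratios were 2.17 and 3.01. The other leading genes were Kcnb2 and Fgf14 (a potassium channel and a regulator of sodium channels), Rab27b (vesicle release), Hpgd (the enzyme that breaks down prostaglandins), Sulf2 (an extracellular sulphatase), Ccdc3 and the unannotated Gm26771, with log2 ratios between 1.35 and 2.66 in either library. Against Mmp13-zero cells of the same clusters Fgf14 lay inside 2-fold in Lipo-Clo, at 0.15, and the other 14 of the 15 genes stayed past it in both libraries.

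The genes of the working description behaved unevenly. Igfbp3, a carrier of insulin-like growth factors, was at 418 against 141 CPM in Lipo-Clo and 319 against 194 CPM in Lipo-PBS, and in the same clusters its log2 ratios shrank from 1.57 and 0.72 to 0.39 and 0.45. H19, an imprinted non-coding RNA, was higher in Lipo-Clo (208 against 111 CPM) and nearly level in Lipo-PBS (173 against 158 CPM). Its log2 ratios of 0.90 and 0.13 shrank to 0.36 and 0.03 in the same clusters. Epha3, a receptor tyrosine kinase for ephrins, was at 147 against 73.0 CPM and 186 against 86.7 CPM, but with the same clusters the log2 ratios were −0.01 and 0.39. Cluster 4 carried 68.3% of the Igfbp3, 56.7% of the H19 and 50.9% of the Epha3 UMIs of the Lipo-Clo cells, and 42.4%, 47.0% and 33.5% in Lipo-PBS.

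Wif1, another secreted Wnt inhibitor, did not mark the cells. It was at 705 against 655 CPM in Lipo-Clo and 584 against 636 CPM in Lipo-PBS, and at 1049 and 959 CPM in osteocalcin-high cells. With the same clusters its ratios were −0.67 and −0.86, that is, lower in Mmp13-positive than in Mmp13-zero cells of like kind.

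**Figure D3:**
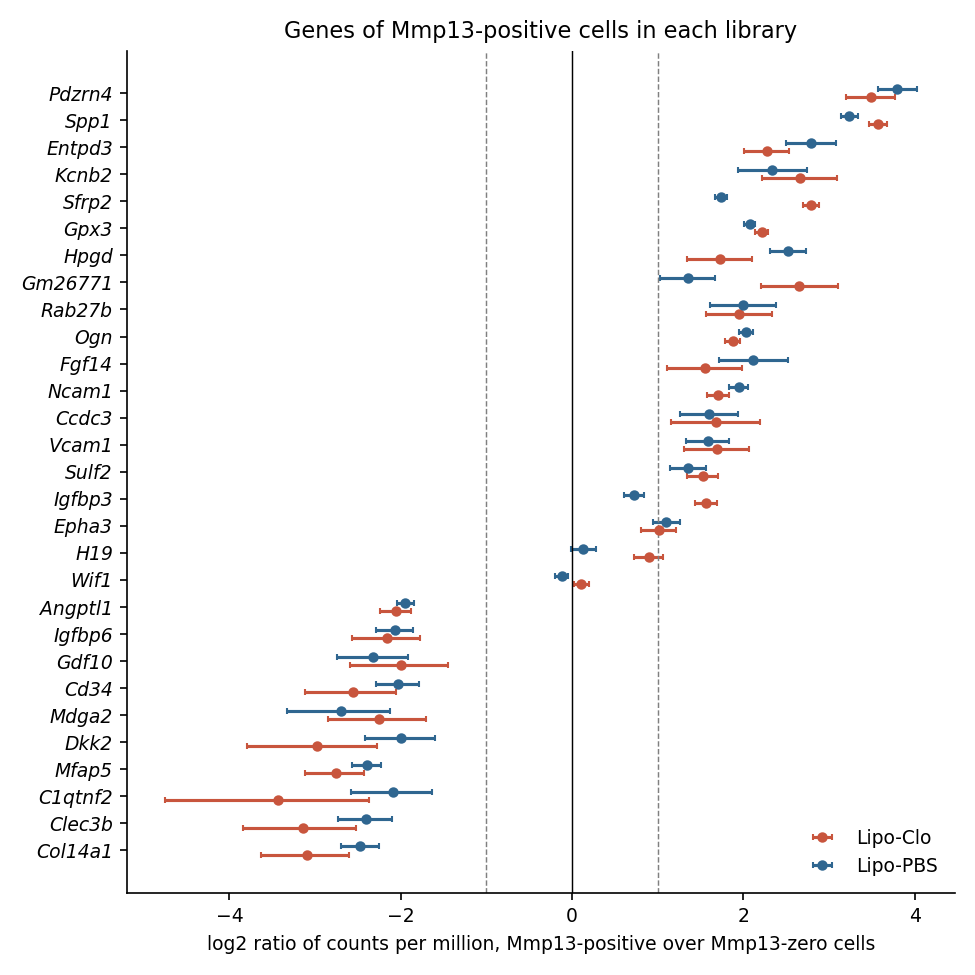
Log2 ratio of CPM in Mmp13-positive over Mmp13-zero cells (x axis) for the 15 highest and 10 lowest genes and for Igfbp3, H19, Epha3 and Wif1, with 95% counting intervals in each library and dashed lines at 2-fold. The 15 genes at the top lie beyond 2-fold in both libraries, whereas Wif1 lies near 0 in both.

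Genes of bone formation differed in both directions. Alpl, the tissue-nonspecific alkaline phosphatase, was at 542 against 248 CPM in Lipo-Clo and 394 against 169.7 CPM in Lipo-PBS, log2 ratios of 1.13 and 1.22. Ibsp, bone sialoprotein, was at 825 against 3191 CPM and 1122 against 3117 CPM, log2 ratios of −1.95 and −1.47. Of 25 genes of the osteoblast list, 2 were higher (Alpl and Spp1) and 3 lower (Ibsp, Ifitm5 and Smpd3), beside 0.655% and 2.36% of all genes, and the rule on osteocalcin removed cells late in this lineage. Against Mmp13-zero cells of the same clusters neither Alpl nor Ibsp was past 2-fold, with log2 ratios of 0.73 and 0.60 for Alpl and of −0.84 and −0.14 for Ibsp.

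Transcripts of the factors with letters in the promoter differed by less than 2-fold. Runx2 was at 563 against 595 CPM in Lipo-Clo and 613 against 555 CPM in Lipo-PBS. Fos was at 1153 against 1434 CPM and 1481 against 1765 CPM, and Jun had log2 ratios of −0.33 and −0.18. Of 19 AP-1 and immediate early genes, 0 were 2-fold higher, which at 0.655% of all genes says nothing of the list, and 3 were lower (Klf4, Hspa1a and Hspa1b), beside 2.36% of all genes. Against Mmp13-zero cells of the same clusters all 3 lay inside 2-fold in both libraries. Transcript levels say nothing of the activity of the proteins.

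Other proteases and inhibitors were compared next. Of 23 genes of this list besides Mmp13, Mmp9 was the only 1 that was higher, at 84.1 against 42.0 CPM in Lipo-Clo and 49.8 against 14.4 CPM in Lipo-PBS, and Reck, a membrane-anchored inhibitor, the only 1 that was lower, beside 0.655% and 2.36% of all genes. Mmp10, under the UMI limit in Lipo-Clo, was at 51.8 against 1.35 CPM in Lipo-PBS. Mmp14 had log2 ratios of 0.20 and 0.56 and Timp2 of 0.31 and 0.64. Mmp9 is also an osteoclast gene, and Acp5, another gene of that list, was at 35.1 and 42.5 CPM in the positive cells. The 2 osteoclast genes used had median log2 ratios over Mmp13-zero cells of 0.60 in Lipo-Clo and 1.58 in Lipo-PBS. Tnfsf11, the osteoclast differentiation factor RANKL, was seen in 6.23% and 6.75% of the cells, at 17.0 against 2.24 CPM and 21.4 against 4.46 CPM.

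Of 42 Wnt pathway genes used, 1 (Sfrp2) was higher and 10 were lower, beside 0.655% and 2.36% of all genes. The 10 included the ligands Wnt5a and Wnt10a, the receptor Lgr5, the inhibitors Dkk2, Notum and Apcdd1, and the target genes Axin2, Nkd2 and Tcf7. Wnt5a, for example, was at 101 against 369 CPM in Lipo-Clo and 126 against 299.7 CPM in Lipo-PBS. Against Mmp13-zero cells of the same clusters Wnt5a (−0.99) and Apcdd1 (−0.78) lay inside 2-fold in Lipo-PBS. The list median was −0.30 and −0.34, below the −0.05 and −0.03 of all genes.

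Genes of connective tissue fibroblasts were often lower. Of 15 fibroblast genes used, 0 were higher and 10 lower, beside 2.36% of all genes, with list medians of −2.09 and −1.95. Col14a1, a fibril-associated collagen, was at 18.1 against 154 CPM in Lipo-Clo and 60.2 against 335 CPM in Lipo-PBS. Clec3b, Mfap5, Cd34, Igfbp6 and Gdf10 of this list were also among the 10 lowest, with Mdga2, C1qtnf2, Dkk2 and Angptl1 from outside it, and with the same clusters the log2 ratios of these 10 genes lay between −2.34 (Mdga2) and −0.68 (Cd34). In Lipo-PBS 5 of the 6 fibroblast genes named here (Col14a1, Clec3b, Igfbp6, Cd34 and Gdf10) then lay inside 2-fold, and Eln, another of the 10 lower genes of the list, stood at 0.0523. For fibrillar and other collagens 3 of 22 were lower, for TGF-β and BMP genes 6 of 47 were lower, beside 2.36% of all genes. With the same clusters none of the 3 collagens (Col14a1, Col15a1 and Col4a2) was past 2-fold in both libraries, and neither were Tgfbr3, Bmp3, Bmp4 and Gdf10 of the 6. Of 18 imprinted and 20 dividing-cell genes 0 passed the limit in either direction, which is near the share of all genes.

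Levels of some genes shifted stepwise with the number of Mmp13 UMIs, below the limit of the rule too. Gpx3 went from 306 CPM at 0 UMIs through 727, 877, 1018 and 1529 to 1957 CPM at 10 or more in Lipo-Clo, and from 384 through 851, 920.3, 1268 and 1522 to 2215 CPM in Lipo-PBS. Ncam1 likewise went from 135 to 479 CPM and from 126 to 547 CPM without a step back. Angptl1, a gene of the ligament list, went down from 588 to 135 CPM and from 1119 to 159.8 CPM. Ogn levelled off from 3 UMIs upwards, Sfrp2 was highest at 5 to 9 UMIs in Lipo-Clo and at 10 or more in Lipo-PBS, and Wif1 had no order. Cells with more Mmp13 UMIs were also deeper up to 2 UMIs (medians of 3070, 3981 and 4893.5 at 0, 1 and 2 UMIs in Lipo-Clo), beyond which the medians lay between 4307.5 and 5280.5 in both libraries.

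**Figure D4:**
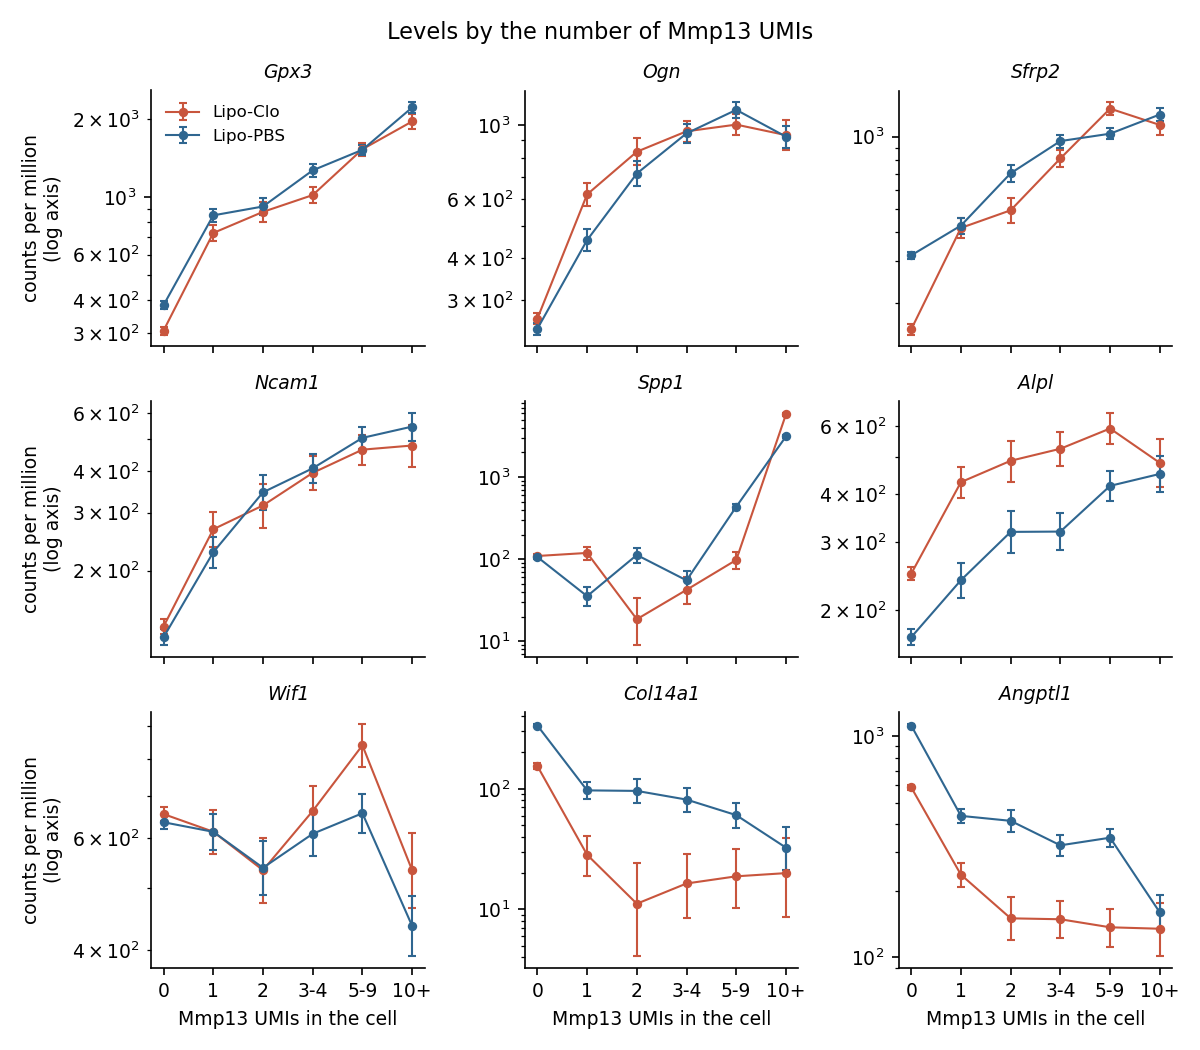
Level of 9 genes (y axis, CPM on a log scale) in collagen-rich cells with little osteocalcin and Dspp by the number of Mmp13 UMIs in the cell (x axis), with 95% Poisson intervals. Gpx3 and Ncam1 climb over all 6 classes in both libraries, Col14a1 and Angptl1 are lower at 10 or more than at 0, and Spp1 jumps at 10 or more, to 5833 CPM with clodronate and 3136 CPM with vehicle.

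Spp1, the bone matrix protein osteopontin, did not follow the other genes. Only 14.4% and 14.8% of Mmp13-positive cells held a UMI, and the 35 cells with the most held 99.3% of its UMIs in Lipo-Clo, the top 62 cells 99.001% in Lipo-PBS. A small set of cells with at least 50 Spp1 UMIs, chosen after the values were seen, comprised 10 Lipo-Clo and 17 Lipo-PBS cells. Their Mmp13 level was 4734 CPM (4153 to 5374) and 4312 CPM (3839 to 4827), against 1236 and 1657 CPM in the other Mmp13-positive cells.

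These Spp1-rich cells differed from the rest in some other bone genes. Dmp1, a matrix protein of osteocytes and other cells set in mineralised matrix, was at 535 and 271 CPM, against 8.21 and 3.77 CPM in the other cells. Runx2 was at 1386 and 899.5 CPM, against 539.9 and 606 CPM. Alpl went the other way, at 119 and 228 CPM against 554 and 398 CPM, and so did Sfrp2, at 19.8 and 143 CPM against 1105 and 1082 CPM. Ibsp was at 1763 and 15464 CPM, against 799 and 778 CPM. Sp7 (19.8 and 28.6 CPM, against 81.5 and 52.7 CPM) and Bglap (119 and 129 CPM, against 75.5 and 97.9 CPM) lay within the counting intervals, whereas Bglap2 did so at 79.2 against 101 CPM in Lipo-Clo and not at 271 against 82.5 CPM in Lipo-PBS. Of the osteoclast genes, Mmp9 was at 376 and 114 CPM, against 76.0 and 48.3 CPM, and Acp5 had 0 UMIs in both, which at this depth does not set them apart from the other cells. None of the cells was scored as a doublet. Of the 17 cells in Lipo-PBS, 9 lay in cluster 5, led by endothelial genes, and 3 in cluster 16, led by enamel genes, whereas the 10 in Lipo-Clo lay in clusters 2, 6, 8, 9 and 11.

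Between the libraries, 205 of 6150 genes (3.33%) were at least 1.5-fold higher in Mmp13-positive cells of Lipo-Clo than of Lipo-PBS and 700 (11.4%) at least 1.5-fold lower, by size alone. In the Mmp13-zero cells the same limit gave 123 of 6145 genes (2.0%) higher and 389 (6.33%) lower. The zero cells held 9837421 and 9646776 UMIs, the positive cells 1878594 and 2989981. Counting error passes a limit by size more often at lower counts, so these shares are not directly comparable. Mmp13 itself stood at 1330.2 CPM in the positive Lipo-Clo cells against 1719 CPM in the Lipo-PBS ones (log2 ratio −0.37, −0.44 to −0.30), and over all collagen-rich cells with little osteocalcin and Dspp at 221 and 393 CPM. The level in positive cells rests on the value that chose them and lay within 1.5-fold, and by cluster it ran from −0.56 in cluster 0 to 1.12 in cluster 1.

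Several ligament genes were lower in the positive cells of Lipo-Clo. Postn, periostin of the ligament matrix, stood at 1897 CPM with clodronate and at 4774 CPM with vehicle (log2 ratio −1.33, −1.39 to −1.28). In the Mmp13-zero cells it was at 2634 and 2567 CPM (log2 ratio 0.04, 0.01 to 0.06). The log2 ratios of positive over zero cells were −0.47 for Lipo-Clo against 0.89 for Lipo-PBS, and −0.06 and 0.73 against zero cells of the same clusters. Aspn, asporin, was at 671 and 1607 CPM in positive cells (−1.26) and at 659 and 1022 CPM in zero cells (−0.63), and Tnn, tenascin N, at 265 and 685 CPM (−1.37) and at 236 and 281 CPM (−0.26).

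Of 14 ligament genes used, 0 were higher and 8 lower (Postn, Aspn, Tnn, Angptl1, Htra1, Itgbl1, Plod2 and Edil3), beside 3.33% and 11.4% of all genes. Tnmd (−0.20) and Maf (0.00) did not pass, and Crispld2 stood at 0.51. The list median was −0.69, against −0.22 in the zero cells and −0.05 for all genes. The difference in Postn was seen within clusters. In cluster 0 it was at 2504 CPM in 85 Lipo-Clo cells and 8700.3 CPM in 128 Lipo-PBS cells (−1.80, −1.90 to −1.70), in cluster 4 at 1263 and 3023 CPM (−1.26, −1.40 to −1.12), and in cluster 15 at 1084 and 6568 CPM (−2.60). Of the 7 clusters with at least 30 Mmp13-positive cells that were not led by other cell types, cluster 9 alone went the other way, at 9794 and 5282 CPM (0.89), with 6 Lipo-Clo cells. With the same mixture of clusters in both libraries the ratio of Postn was −1.48.

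Further matrix genes were lower as well. Of 20 collagens, 0 were higher and 8 lower, beside the same 3.33% and 11.4% of all genes. Col12a1, a fibril-associated collagen of tendon and ligament, was at 1286 and 2935 CPM (−1.19, against −0.52 in zero cells). The main fibrillar chains differed little, with log2 ratios of −0.15 for Col1a1, −0.36 for Col1a2 and −0.13 for Col3a1. Of 37 TGF-β and BMP genes 10 were lower and 0 higher (11.4% and 3.33% of all genes), for example Tgfbi at 64.9 and 135 CPM (−1.06, against 0.19 in zero cells) and the receptor Tgfbr2 (−0.73, against −0.64). Fibroblast genes were lower in 9 of 12 (11.4% of all genes), but nearly as low in the zero cells, with list medians of −0.98 and −0.82.

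The largest differences downwards among mesenchymal genes were in Dio2, Mmp10, Stc2, Stc1 and Ptchd4. Dio2, the deiodinase that activates thyroid hormone, was at 30.9 and 301 CPM (−3.28, −3.69 to −2.90), and in zero cells at 152 and 310 CPM (−1.03). Cluster 9 carried 62.1% and 73.2% of its UMIs in positive cells. With the same mixture of clusters in both libraries its ratio was −1.60. Mmp10, the stromelysin next to Mmp13 in the protease list, had 1 UMI in Lipo-Clo and 155 in Lipo-PBS (−6.61, −11.92 to −4.11), of which 82 lay in 1 cell and 143 in cluster 9.

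Stc2, the hormone stanniocalcin 2 that inhibits the PAPP-A proteases, was at 8.52 and 60.2 CPM (−2.82), and in zero cells at 8.74 and 11.9 CPM. In cluster 0, which held 62.8% of its Lipo-PBS UMIs, it was at 22.8 and 181 CPM (−2.99, −4.16 to −2.02). Ptchd4, a relative of the hedgehog receptor, was at 13.8 and 62.2 CPM (−2.17) with −0.11 in zero cells, and Hpgd at 52.2 and 175 CPM (−1.75) with −0.96. Stc1 stood on 11 UMIs in 2 cells of Lipo-Clo and 92 in 30 cells of Lipo-PBS (−2.39), and in cluster 9 its ratio was −2.48 (−5.56 to −0.58). With the same mixture of clusters in both libraries it turned to 0.52, which rests on 9 UMIs in 1 Lipo-Clo cell of cluster 4. Mt4, Pf4, Entpd1 and Ccl21a were also among the 10 lowest, and several of them are known from epithelium, platelets or lymphatic vessels.

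Of the 15 genes with the largest ratio in Mmp13-positive cells, 5 were past 1.5-fold between the libraries, beside 3.33% higher and 11.4% lower of all genes. Sfrp2 had a log2 ratio of 0.02 (−0.06 to 0.10) over all positive cells and of −1.03 in zero cells. It was lower in Lipo-Clo beyond counting error in several clusters, at −0.19 in cluster 4, −2.41 in cluster 6 and −2.04 in cluster 15, and the Sfrp2-rich cluster 4 held 28.6% of the Lipo-Clo and 19.1% of the Lipo-PBS positive cells. In cluster 9 it was lower too, with 0 UMIs in 6 Lipo-Clo and 172 in 43 Lipo-PBS cells, whereas in cluster 11 its ratio was 0.14 (−0.21 to 0.50). Gpx3 (−0.18), Ogn (−0.05) and Ncam1 (−0.13) lay within 1.5-fold, as did Igfbp3 (0.39), H19 (0.26), Wif1 (0.27) and Epha3 (−0.33) of the working description. Pdzrn4 (−0.72, against −0.40 in zero cells), Vcam1 (−0.70, against −0.81), Ccdc3 (−0.80, against −0.88) and Hpgd (−1.75, against −0.96) were lower in Lipo-Clo. Sulf2, at 210.3 and 116 CPM (0.86, against 0.69 in zero cells), was higher.

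Genes higher in Lipo-Clo were led by those of neutrophils. S100a9 was at 3275 and 1096 CPM in positive cells (1.58) and at 4200.2 and 1278 CPM in zero cells (1.72). All 6 neutrophil genes were higher, beside 3.33% of all genes, at a summed 6629 and 2459 CPM (7632 and 2404 CPM in zero cells). Of the S100a9 UMIs of positive cells, 93.6% and 84.2% lay in cluster 17, which was led by neutrophil genes and held 11 and 7 of the cells. Outside it the gene was still spread thinly, for example at 292 and 47.6 CPM in cluster 4. Retnlg (3.35), Cstdc5 (3.19), Stfa3 (4.09), Stfa2, Wfdc17, Wfdc21, Pglyrp1 and S100a8, all expressed in neutrophils or related myeloid cells, made up the list of the 10 highest together with S100a9 and Insl6. The part of these cells or of their free transcripts in the other differences was not tested.

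Among mesenchymal genes, Pcp4 was at 333 and 133 CPM (1.32, 1.14 to 1.51), against 0.54 in zero cells. Insl6, a relative of insulin and relaxin, was at 69.2 and 22.4 CPM (1.63) and Igfbp5 at 1261 and 799 CPM (0.66), with 2.15 and 0.78 in zero cells. The imprinted gene Mest stood at 0.65 and the osteoblast factor gene Sp7 at 0.61. Of 13 dividing-cell genes 4 were higher (Ube2c, Tyms, Ccnb2 and Birc5) and 0 lower, beside 3.33% and 11.4% of all genes, with list medians of 0.50 in positive and 0.48 in zero cells. Markers of other cell types in the positive cells summed to 55.9 and 89.3 CPM for the 6 macrophage genes (C1qc the most abundant), 52.2 and 120.1 CPM for the 6 endothelial genes (Egfl7), and 21174 and 30819.6 CPM for the 6 erythroid genes (Hbb-bs). Those of ameloblasts (742 and 512 CPM, Odam the most abundant) and osteoclasts (122 and 98.3 CPM, Mmp9) went the other way. Their part in the differences between the libraries was not tested.

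**Figure D5:**
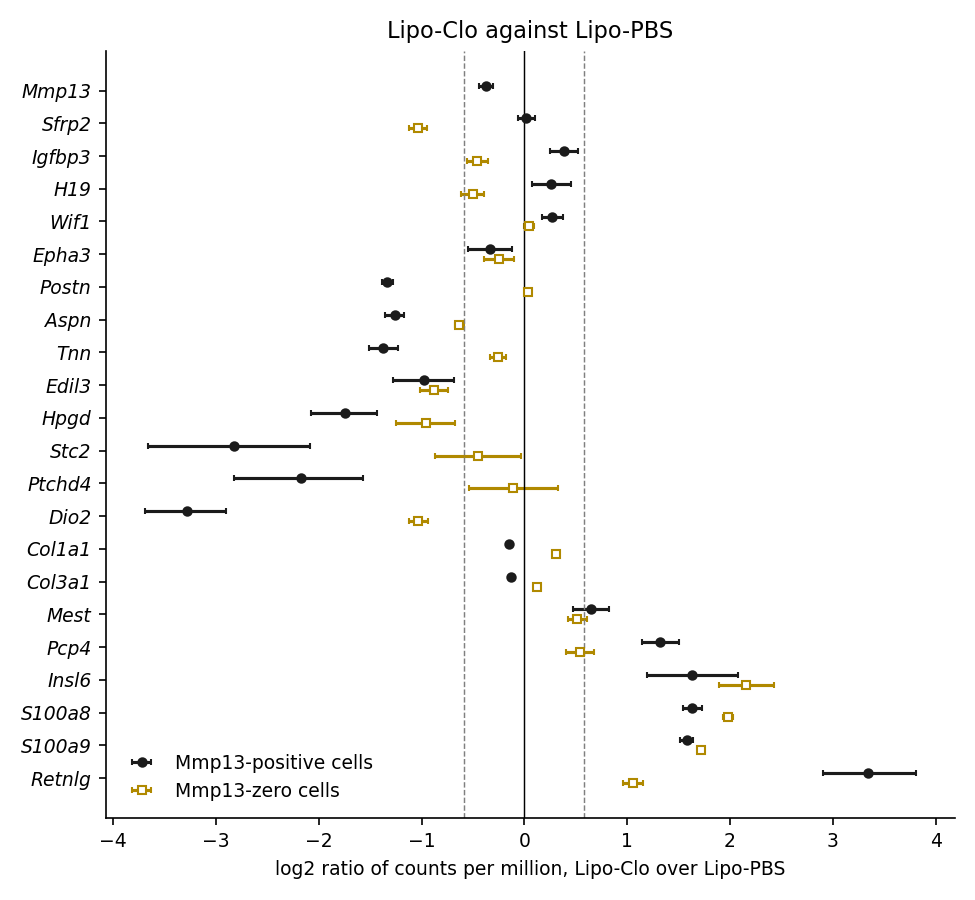
Log2 ratio of CPM, Lipo-Clo over Lipo-PBS (x axis), for 22 genes in Mmp13-positive cells (filled circles) and in Mmp13-zero cells (open squares; Mmp13 is 0 there by definition), with 95% counting intervals and dashed lines at 1.5-fold. Postn and Tnn lie to the left of the limit in positive cells and within it in zero cells, whereas S100a8 and S100a9 lie to the right in both.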

How the data were processed

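The deposited files hold, for each of the 2 libraries, UMI counts per gene and cell for 34285 genes, which the authors made with Cell Ranger, so the unit is raw counts. The file headers name Cell Ranger 8.0.0, the submitters' processing notes Cell Ranger 3.1.0, Seurat 3.1.1, GRCm39 and mm39. Lipo-Clo held 9362 cells and 31053404 UMIs, Lipo-PBS 9653 cells and 30537834 UMIs. After a minimum of 200 genes and a maximum of 20% mitochondrial UMIs, 8886 and 8894 cells were left.

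Counts were summed over the cells of a group and divided by all UMIs of that group (CPM). Log2 ratios were taken without a pseudocount, with exact 95% intervals (binomial for ratios, Clopper-Pearson for shares, Poisson for levels). With 1 library per condition no test was run: genes were counted by size, at 2-fold in both libraries with at least 50 UMIs (positive against zero cells) or 1.5-fold with at least 100 UMIs over both libraries (between libraries). For the comparison between libraries, counts of 6151 genes were simulated with counting error alone. There 100% of 200 genes changed 3-fold were past the limit and 1.09% of unchanged genes were. Differences between mice or libraries were not simulated, so the 1.09% is not a rate of false calls for these data. All cells kept with Col1a1 at 1% or more of UMIs, whatever their osteocalcin or Dspp, were clustered. This used 2000 variable genes without Mmp13 (scanpy 1.11.5, 20 components, Leiden at resolution 1). A cluster with at least 3 markers of another cell type among its 10 leading genes was called led by that type. Automatic doublet calling marked 0 and 1 cells, so the 632 and 633 cells with the highest scores were used for an alternative without doublets.

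The cells, gene lists and limits were chosen with earlier results of these data known. Named genes were those of the rule and working description, the 15 highest and 10 lowest by the library nearer to 1 (seen in at least 10% of cells), the 10 highest and 10 lowest between libraries, and up to 6 of each gene list by CPM or ratio, and some of these are not reported here. Tnn, Tnfsf11, Tgfbi, Tgfbr2, Acp5, Reck and the Spp1-rich cells were singled out after their values were seen. Alternatives covered the UMI and gene limits, scaling (edgeR 4.0.16 TMM), thinning, doublets and cluster resolution. Leaving out clusters led by other cell types and giving both libraries the same mixture of clusters were added after seeing the data. Other software was numpy 2.4.6, scipy 1.17.1, pandas 2.3.3 and matplotlib 3.10.9.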

Additional observations from a re-analysis of the deposited data

Results flagged for a closer look

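Col7a1 and Gpha2 were singled out because they differed between the libraries in opposite directions in Mmp13-positive and Mmp13-zero cells, by at least 1.5-fold in each. Col7a1, the anchoring fibril collagen, had a log2 ratio of Lipo-Clo over Lipo-PBS of −0.78 (−1.34 to −0.24) in positive cells, on 149 UMIs, and of 0.94 (0.78 to 1.11) in zero cells. It is a leading gene of cluster 3, which held 477 eligible Lipo-Clo and 145 Lipo-PBS cells, so the zero cells differ in cluster mixture. Gpha2, a glycoprotein hormone subunit, had a log2 ratio of 0.65 (0.33 to 0.96) in positive cells, on 347 UMIs, and of −1.44 (−1.58 to −1.30) in zero cells. The difference between the groups of cells was not tested, and with 1 library for each condition it could not be.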

How the results depend on the processing

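No paired analysis was possible because there is 1 library for either treatment. The log2 ratio of the share of positive cells was −0.82 of all cells kept and −0.57 of collagen-rich cells with little osteocalcin and Dspp. Between libraries, 36 genes were higher and 160 lower of 6150 at 2-fold, and 636 and 1462 of 10358 with at least 30 UMIs. With at least 400 UMIs the counts were 52 and 173 of 1848, and in thinned cells 77 and 158 of 1480. Higher genes made up 22.7% of those past the limit, and 32.8% in thinned cells. Against Mmp13-zero cells, 242 genes were higher and 635 lower of 11141 at 1.5-fold. The counts were 29 and 118 of 6698 with at least 200 UMIs, and 37 and 160 of 6957 in thinned cells. With Mmp13-zero cells at the same cluster mixture they were 44 and 92 of 11141, of which 32 and 73 were among the 73 and 263. The fullest cluster held 26.7% of the positive cells at resolution 0.5. Among single genes, Ccl2 between libraries turned to 0.086 with at least 5 Mmp13 UMIs and 0.16 with Col1a1 from 0.5%. Stc1 turned to 0.52 with the same mixture of clusters, on 9 UMIs of 1 Lipo-Clo cell. Against Mmp13-zero cells with the same cluster mixture, Epha3 turned to −0.0135 and Igfbp2 to 0.17 in Lipo-Clo, and Eln to 0.0523 in Lipo-PBS. The causes were not tested. Depth limits genes under 100 UMIs, and no replicate error is known.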
